A study of Mus musculus with 2 samples.

Results

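The 8 genes described here are the purinergic, lysophospholipid and fractalkine receptors by which microglia sense their surroundings, together with the fractalkine ligand: P2ry12, P2ry13, P2ry6, P2rx4, P2rx7, Gpr34, Cx3cr1 and Cx3cl1. They were taken by symbol, and all 8 were found among the 31053 features of both count tables. P2Y receptors are G protein-coupled receptors for nucleotides released by active or damaged cells: P2Y12 and P2Y13 bind ADP and signal through Gi, and P2Y6 binds UDP and is known for its part in phagocytosis. P2X4 and P2X7 are ion channels opened by ATP, and P2X7 is best known for driving the NLRP3 inflammasome. GPR34 is a receptor for lysophosphatidylserine. CX3CR1 binds fractalkine, the product of Cx3cl1, a membrane-bound chemokine made mainly by neurons that proteases such as ADAM10 and ADAM17 can release. P2ry12 and Cx3cr1 are widely used to mark resting, surveying microglia.

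The libraries were 10x Genomics Chromium 3′ single-cell libraries of cells sorted as positive for both Cd11b and Cd45, the surface proteins that mark myeloid cells, from the hypothalamic and thalamic region of outbred CD1 mouse embryos at E15.5. The control library pooled tissue of 10 embryos of 1 unstressed dam. The stressed library pooled tissue of 5 embryos of 1 dam that had been kept at 4 °C for 30 min a day over 5 days, from E11.5. The mice carried no transgene, per the labels. With 1 dam and 1 library per condition, litter, sex makeup, library depth and stress cannot be told apart, no test between conditions was possible, and every interval below (95%) covers counting error only.

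Of 1156 control and 1467 stressed barcodes, 1068 and 1407 passed the cell filter; 13 barcode sequences occurred in both libraries, and 1 of them was kept in both. The stressed library was deeper, with a median of 3767 UMIs (unique molecular identifiers, one per captured RNA molecule) per barcode against 1947.5 in the control. Cells were assigned to classes and states from marker genes that exclude all 8 genes. There were 662 control and 1124 stressed microglia-like cells, 76 and 27 border-associated macrophage-like cells (macrophages of the brain's surfaces and vessels), and 207 and 140 neural-like cells that had come through the sort. Tmem119 and Sall1, which did not decide between these macrophage classes, stood at 120 and 309.8 CPM (UMIs per 1000000 UMIs of the group) in the control microglia-like sum. Tmem119 was at 10.6 CPM in the control border-associated sum. Lyve1, at 0 UMIs in the former, and Pf4, at 7201 CPM in the latter, belong to the border-associated list that the gate used. Their values thus follow at least in part from the gate and are no check of the names. Microglia-like cells were further divided into resting-type cells (360 and 647) and 4 states gated on other genes: Spp1-high (79 and 68), Ccl3/Ccl4 (92 and 148), S phase (44 and 101), and G2 and mitosis (87 and 160). These gates cut continuous scores, and 52 control and 57 stressed cells lay within 1.5 times of the Spp1 gate.

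On GRCm38 with GENCODE M21 annotation, several of the genes sit in pairs. P2ry12 (chromosome 3, 59216272 to 59262871, minus strand) and P2ry13 (59207892 to 59210882, minus strand) are neighbours 5389 bases apart, and both lie within Med12l on the opposite strand. P2rx7 (chromosome 5, 122643911 to 122691432) and P2rx4 (122707544 to 122729738) follow each other on the plus strand, 16111 bases apart. P2ry6 is on chromosome 7 (100937630 to 100974649, minus strand), Gpr34 on the X chromosome (13632089 to 13640858, plus strand, opposite Cask), Cx3cr1 on chromosome 9 (119901616 to 120069879, minus strand) and Cx3cl1 on chromosome 8 (94772009 to 94782427, plus strand). Whether counting used strand is not given in the sources used here. If it did not, reads of P2ry12 and P2ry13 cannot be told apart from antisense Med12l reads; Med12l itself had 42.0 CPM in control and 39.4 CPM in stressed microglia-like cells, and Cask 4.02 and 5.12 CPM. The Cx3cr1 model also overlaps Gorasp1, Csrnp1 and Xirp1.

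RefSeq promoter windows (GRCm38.p6, 250 bases before the start) were found for 6 of the 8 genes. They were searched on both strands for 2 short forms of the site of PU.1, the lineage factor of macrophages (GAGGAA and GGAAGT, which can share their GGAA). A loose form of the MEF2 site was also searched, CTA and TAG with any 4 bases between them. MEF2C is a factor of resting microglia. GAGGAA occurred in 23.3% of all 32851 windows, GGAAGT in 19.7% and the MEF2 form in 3.2%. Among the 7 windows of the genes described here, GAGGAA occurred in 2 (Cx3cl1 and P2ry13), GGAAGT in 1 (P2ry12) and the MEF2 form in 1 (Cx3cr1). The neighbours P2ry12 and P2ry13, and Cx3cr1, which stood on the other side of resting-type cells from them in G2 and mitosis, are shown for the 30 bases around their match, 5′ to 3′ on the gene's strand, with the match in capitals. The P2ry12 stretch is chr3:59263019-59263048, the P2ry13 stretch chr3:59210913-59210942 and the Cx3cr1 stretch chr9:120068344-120068373, all on the minus strand.
P2ry12: agctaacaagaaGGAAGTtccccagtgaca
P2ry13: acaaggggaaatGAGGAAggaaaagcagta
Cx3cr1: gtcacagcatCTAAAGATAGggtaccacac
The matches begin 51 bases before the RefSeq start of P2ry12, 48 before that of P2ry13 and 67 before that of Cx3cr1. These starts can differ from the GENCODE ends given above. The Cx3cr1 window (chr9:120068297-120068546) lies inside the gene as given, and the P2ry12 window (chr3:59262986-59263235) does not adjoin its end at 59262871. For P2ry12 and the P2rx7 window chr5:122650133-122650382, the bases after the start were not found in a GENCODE transcript of the gene. The full P2ry13 window is chr3:59210883-59211132, and whether an exon of another gene falls in it was not checked.
P2ry13 window: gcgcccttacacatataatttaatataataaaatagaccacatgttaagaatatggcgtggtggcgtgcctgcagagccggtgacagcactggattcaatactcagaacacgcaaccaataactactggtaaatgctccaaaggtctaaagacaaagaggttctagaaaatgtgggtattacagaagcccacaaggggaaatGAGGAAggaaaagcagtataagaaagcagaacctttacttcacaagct
The window of the ligand gene Cx3cl1 held 2 matches of GAGGAA, beginning 93 and 66 bases before the start, 1 on each strand. The P2rx4 window and both P2rx7 windows held none of these letters. The loose MEF2 form puts no limit on its 4 middle bases, which are AAGA in Cx3cr1, so this match need not fit the MEF2 site itself. A match describes letters in a window and is not a bound site.

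The first question was which sorted cells carried the genes. The receptors were found mainly in the macrophages and in cells that no gate could place, and the ligand was nearly absent from the sort. Cx3cl1, the fractalkine gene, had 0 UMIs in the 1739585 UMIs of control microglia-like cells and 2 UMIs in the 5073929 of stressed ones. It had 2 UMIs in control and 5 UMIs in stressed neural-like cells, the latter at 9.03 CPM (2.93 to 21.1) against 0.394 CPM (0.0477 to 1.42) in stressed microglia-like cells. Those 7 neural UMIs came from 7 cells, spread over neuron-like and neural progenitor-like cells.

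The Gi-coupled ADP receptor P2ry12 stood at 843 CPM (800 to 887) in control and 798 CPM (774 to 823) in stressed microglia-like cells, from 1466 and 4050 UMIs. Its neighbour P2ry13 was at 166 and 138 CPM, and the UDP receptor P2ry6 at 176 and 190 CPM. Gpr34 was at 685 and 814 CPM, and Cx3cr1 at 1238 and 1362 CPM. The ATP-gated channels were sparse: P2rx4 had 73 and 204 UMIs (42.0 and 40.2 CPM), and P2rx7 66 and 183 UMIs (37.9 and 36.1 CPM). In neural-like cells P2ry12 had 1 control and 4 stressed UMIs, Cx3cr1 1 and 6, P2ry13 0 and 2, Gpr34 5 and 2, and P2rx4 3 and 8. All 5 genes that reached 50 CPM in microglia-like cells were thus lower by more than 1.5 times in neural-like cells in both libraries, against 26.5% of the other genes at that level for control and 24.9% for stressed cells (46.4% and 45.3% were higher). These 5 passed the level minimum only through the microglia-like cells where they were high, and neural-like cells were gated on carrying few macrophage core transcripts, so this count describes the gates and the minimum. Monocyte or granulocyte-like cells (18 and 15) had no UMI of P2ry12 in either library, while P2ry6 had 2 and 7 (57.1 and 108 CPM) and Cx3cr1 2 and 6 (57.1 and 92.4 CPM). The 105 control and 101 stressed cells that were left unassigned carried P2ry12 at 374 and 278 CPM, Gpr34 at 361 and 377 CPM and Cx3cr1 at 710 and 738 CPM, between the neural-like and the microglia-like levels. Their macrophage core markers stood at 12638 and 9318 CPM, against 18037 and 18110 CPM in microglia-like cells.

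**Figure D1:**
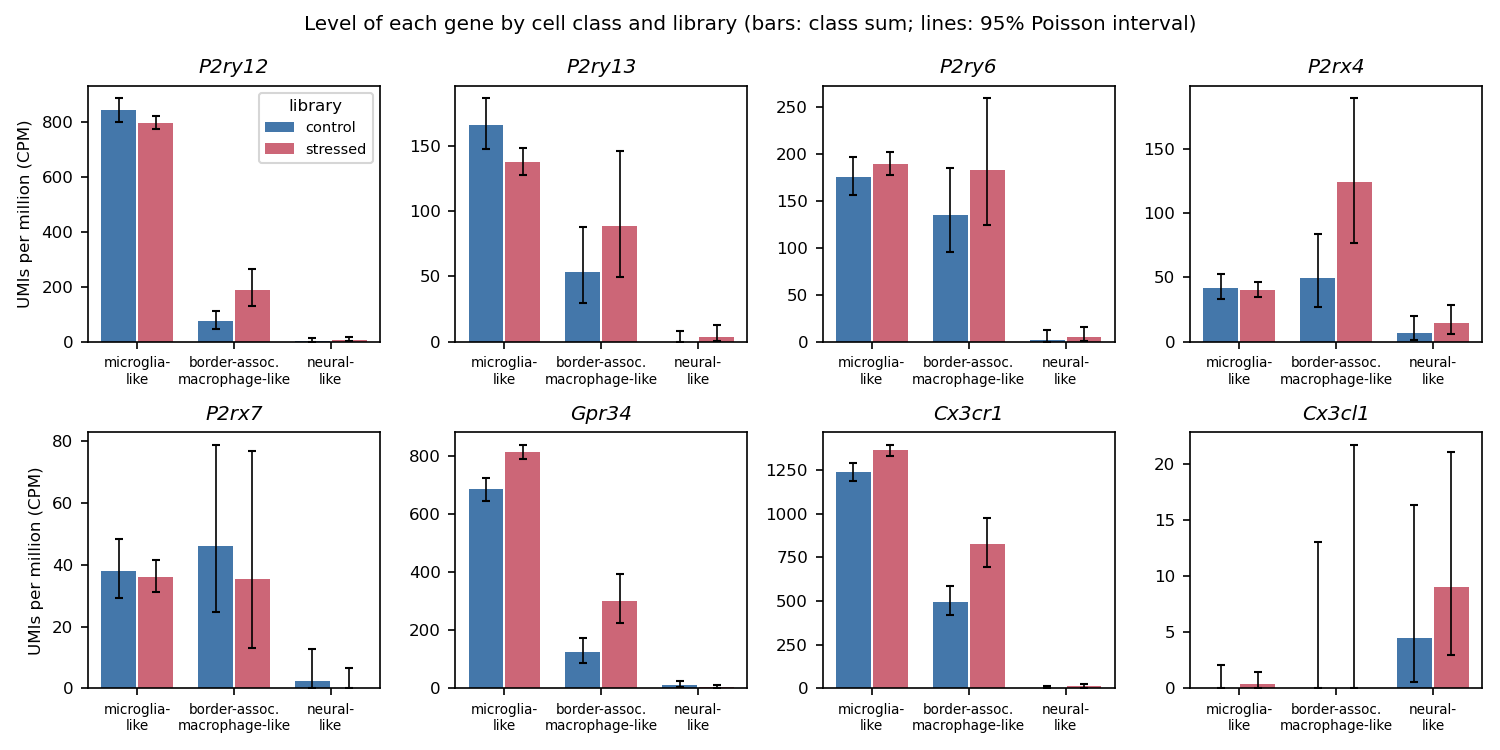
Bars give each gene's CPM in the summed cells of a class in the control and stressed libraries, with 95% Poisson intervals; each panel has its own linear axis from 0. The 7 receptors were near 0 in neural-like cells; P2ry12, Gpr34 and Cx3cr1 were lower in border-associated macrophage-like than in microglia-like cells, whereas P2ry6, P2rx4 and P2rx7 were not lower there beyond the counting intervals.

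Cell by cell, the receptors were common but rarely all seen at once. With every cell thinned to 1100 UMIs, P2ry12 was seen in 61.6% (57.7 to 65.5) of 620 control and 57.8% (54.9 to 60.7) of 1121 stressed microglia-like cells, and in 0 of 167 and 1 of 128 neural-like cells. Cx3cr1 was seen in 70.6% and 72.1% of the thinned microglia-like cells, Gpr34 in 51.3% and 57.0%, P2ry13 in 18.2% and 16.3%, P2ry6 in 21.1% and 20.5%, P2rx4 in 5.65% and 5.08%, and P2rx7 in 5.16% and 4.19%. Without thinning the shares for P2ry12 were 77.9% and 87.1%, so depth set much of them. The abundant macrophage transcript C1qb, seen in 92.6% and 92.9% of thinned microglia-like cells, was seen in 3.0% and 1.6% of neural-like cells. C1qb is a macrophage core gate gene, and neural-like cells could show no more than 2 such genes. Its low share there follows in part from the gate, so it does not measure free RNA. Median depths were 2203 and 3949.5 UMIs in microglia-like and 1546 and 2987 UMIs in neural-like cells. None of the 7 receptors was seen in 6.94% of control and 5.80% of stressed thinned microglia-like cells, against 97.0% and 96.9% of neural-like cells.

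Border-associated macrophage-like cells carried less of 4 of the receptors than microglia-like cells did. P2ry12 was at 74.5 CPM (46.1 to 114) in 76 control cells against 843 CPM in control microglia-like cells, a log2 ratio of -3.50 (-4.20 to -2.88). Gpr34 was at 124 against 685 CPM (log2 -2.46), P2ry13 at 53.2 against 166 CPM (-1.64) and Cx3cr1 at 497 against 1238 CPM (-1.32). P2ry6 was at 135 against 176 CPM, with a log2 ratio of -0.38 (-0.91 to 0.11) that counting error spans. Of the 5 genes with 50 CPM in either control class, 4 were lower past 1.5 times, against 22.8% of other genes; none was higher, against 16.2%. In the stressed library 4 of 6 were lower, against 19.1% of other genes, and P2rx4 was higher (124 against 40.2 CPM, log2 1.62, 0.90 to 2.27), against 18.3%; among Leiden clusters in place of gates its ratio was 0.39. P2rx4 reached 50 CPM only through the class where it was high, so its place among the genes counted follows from that difference. In the control library P2rx4 was at 49.7 CPM in border-associated and 42.0 CPM in microglia-like cells.

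One cell held most of the P2ry12 UMIs of the stressed border-associated cells. Of the 32 P2ry12 UMIs in the 27 cells, 26 came from 1 cell of 15842 UMIs, and the same cell held 63 of 140 Cx3cr1 UMIs and 15 of 51 Gpr34 UMIs. That cell carried 84.6 UMIs of the microglia list and 63.8 of the border-associated list per 10000, with 8 of 10 and 6 of 8 genes of these lists seen. Without it, P2ry12 stood at 39.0 CPM rather than 189 CPM, and its log2 ratio to stressed microglia-like cells went from -2.08 to -4.35 (-5.80 to -3.23); Cx3cr1 went from -0.72 to -1.44 and Gpr34 from -1.44 to -1.80. P2rx4 had no UMI in that cell, and its ratio without it was 1.76 (1.04 to 2.41).

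The second question, set by the design, was whether the receptors of microglia-like cells differed between the stressed and the control library. They differed little. Of the 5 genes at 50 CPM or more, 0 were higher and 0 lower by 1.5 times, against 0.861% and 2.98% of 2554 other genes; the median log2 ratio of the 5 was 0.11 and that of the other genes -0.07. Gpr34, at 685 and 814 CPM, had the highest ratio among the 7 receptors, log2 0.25 (0.16 to 0.34). Cx3cr1 was at 1238 and 1362 CPM, log2 0.14 (0.07 to 0.21), and P2ry6 at 176 and 190 CPM, log2 0.11 (-0.08 to 0.30). P2ry13 was lower in the stressed library, at 138 against 166 CPM, log2 -0.27 (-0.47 to -0.07). In S phase cells alone it was higher there, at 167 against 101 CPM from 85 and 16 UMIs, log2 0.72 (-0.06 to 1.59), past 1.5 times as were 11.2% of other genes. P2ry12 had log2 -0.08 (-0.16 to 0.01), and its sign depended on the setting: it was 0.02 after TMM scaling, which adds 0.10 to every ratio. It was 0.22 under a stricter cell filter, which asked for at least 1000 genes and no more than 5% mitochondrial UMIs. P2rx4 (-0.06, -0.45 to 0.34) and P2rx7 (-0.07, -0.49 to 0.36) had too few UMIs to show a difference of that size.

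**Figure D2:**
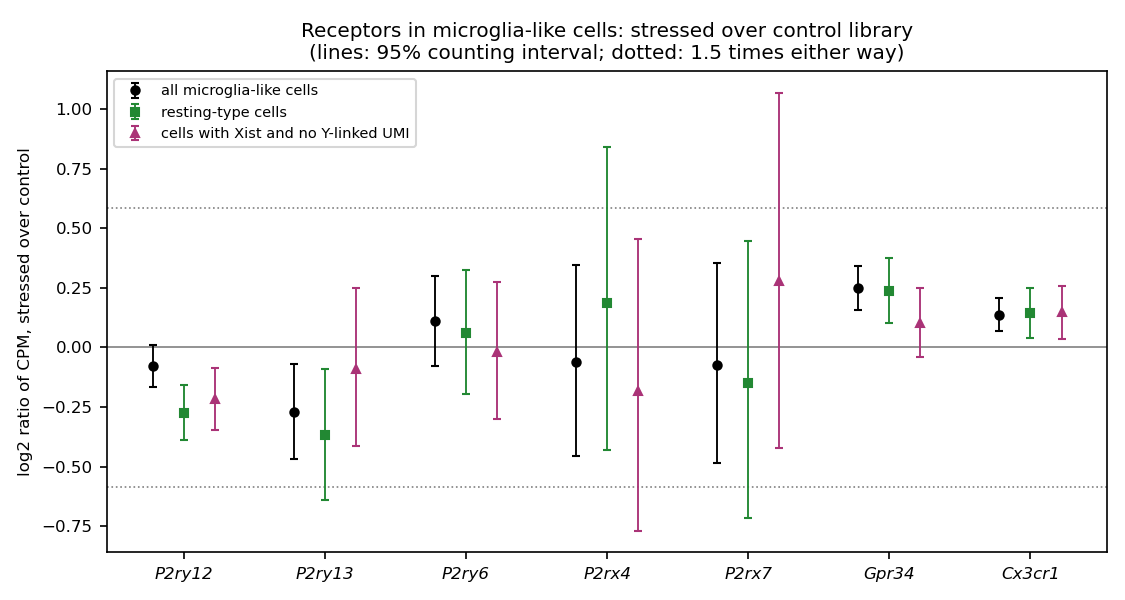
Points give the log2 ratio of CPM, stressed over control, of the 7 receptors in all microglia-like cells, in resting-type cells and in cells with Xist and no Y-linked UMI, with 95% counting intervals; dotted lines mark 1.5 times. All points lie inside the dotted lines, with P2ry13 the lowest in all microglia-like cells (-0.27) and Gpr34 the highest (0.25).

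The libraries also differed in makeup and quality. The median mitochondrial share of microglia-like cells was 2.33% for control and 3.58% for stressed cells, and its part in the ratios was not tested. The Spp1-high state made up 11.9% of control and 6.05% of stressed microglia-like cells, and P2ry12 was low in that state. Within resting-type cells alone, P2ry12 was at 1170 CPM for control and 968 CPM for stressed cells, log2 -0.27 (-0.39 to -0.16), and P2ry13 at 211 and 163 CPM, log2 -0.37 (-0.64 to -0.09); there, 2.22% of 2567 other genes were higher and 5.65% lower past 1.5 times. Sex makeup differed too: 133 control microglia-like cells carried a Y-linked UMI and no Xist, and no stressed cell did. Between the 214 control cells with Xist and no Y-linked UMI and the 133 with the reverse, X-linked Gpr34 was at 767 and 625 CPM, log2 0.30 (0.07 to 0.52), and P2ry6 was higher past 1.5 times (195.6 against 123 CPM, log2 0.67, 0.18 to 1.17), as were 5.88% of other genes, with 6.8% lower. Among cells with Xist and no Y-linked UMI in both libraries (214 and 1040), none of 5 genes passed 1.5 times, against 2.56% of other genes higher and 5.32% lower; the Gpr34 ratio, stressed over control, was 0.10 (-0.04 to 0.25) and that of P2ry12 -0.22 (-0.35 to -0.09). The part of litter, sex and depth in any of these ratios cannot be told apart from that of stress.

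In border-associated macrophage-like cells, 5 of 6 genes at 50 CPM were higher past 1.5 times in the stressed library. Of 2698 other genes, 18% were higher and 17% lower. Without the single cell described above, 2 of 6 were higher (Gpr34 and P2rx4), and P2ry12 was lower past 1.5 times. The shares of other genes were not computed without that cell. P2rx4, at 49.7 CPM in control and 124 CPM in stressed cells, entered the 6 only through the library where it was high. P2ry12 went from 74.5 CPM in control to 189 CPM in stressed cells with that cell (log2 1.34) and to 39.0 CPM without it (log2 -0.93, -2.53 to 0.42). Cx3cr1 had a log2 ratio of 0.73 with it and 0.01 without it. Gpr34 (1.28 with, 0.91 without, 0.20 to 1.63) and P2rx4 (1.32 with, 1.46 without, 0.41 to 2.55) kept their sign. The summed microglia list was also higher in the stressed border-associated cells, at 2818 CPM against 1363 CPM in the control (2237 CPM without the cell), and its part in the Gpr34 ratio was not tested.

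The third question was how the receptors varied among microglial states. The Spp1-high cells, which express osteopontin, a secreted protein of microglia in developing and injured tissue, stood furthest from resting-type cells for the ADP receptor. P2ry12 was at 1170 CPM in control resting-type cells and 346 CPM in control Spp1-high cells, log2 -1.76 (-2.08 to -1.45), and at 968 and 380 CPM in the stressed library, log2 -1.35 (-1.59 to -1.12). P2ry13 was lower by log2 -0.72 and -0.77 in the control and the stressed library, and P2ry6 by -0.74 and -0.59. In each library 3 of 6 genes at 50 CPM were lower past 1.5 times, against 15% of other genes for control and 10.4% for stressed cells; in the stressed library none was higher, against 11.2%. Gpr34 (756 against 519 CPM in the control, 892 against 598 CPM in the stressed library) and Cx3cr1 (1296 against 1042 CPM, 1432 against 1079 CPM) were lower by less, with log2 ratios of -0.54 and -0.58, and of -0.31 and -0.41.

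P2rx4 was the exception among the receptors. It was at 38.3 CPM in control resting-type and 71.5 CPM in control Spp1-high cells (28 and 19 UMIs), log2 0.90 (-0.02 to 1.79); 14.9% of other genes were higher past 1.5 times, and P2rx4 reached the minimum of 50 CPM only through the Spp1-high cells. In the stressed library it was at 43.5 and 59.8 CPM, log2 0.46 (-0.23 to 1.10). Neither interval leaves out 0. P2rx7, with 8 and 12 UMIs in Spp1-high cells, could not be placed.

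Other genes of the resting microglia list were also lower in Spp1-high cells: Tmem119 had log2 ratios of -1.63 and -2.23 in Spp1-high over resting-type cells, Crybb1 -1.59 and -1.45 and Siglech -1.42 and -1.75, whereas Fcrls had -0.18 and -0.29. Of 10 such genes, 8 were lower past 1.5 times for control and 7 for stressed cells, against 15% and 10.4% of the genes outside the 8 described here. Spp1-high cells were deeper than resting-type cells, with medians of 3289 against 1787.5 UMIs for control and 5532 against 3375 for stressed cells. Over 9 alternatives, cells thinned to equal depth among them, the P2ry12 ratio lay between -1.92 and -1.31 for control and between -1.49 and -1.35 for stressed cells.

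**Figure D3:**
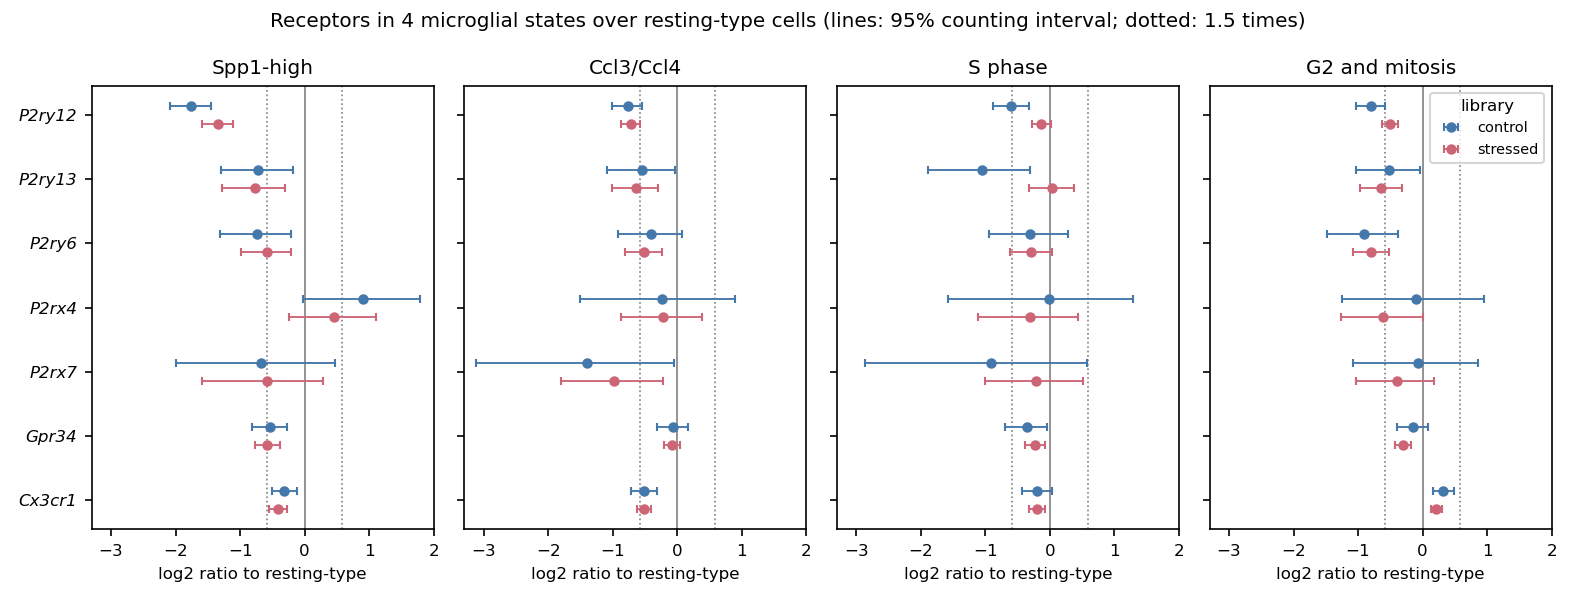
Points give the log2 ratio of each receptor's CPM in 4 microglial states to resting-type cells, in the control and stressed libraries, with 95% counting intervals; dotted lines mark 1.5 times. P2ry12 in Spp1-high cells lies furthest left in both libraries (-1.76 and -1.35), and Cx3cr1 in G2 and mitosis is on the right (0.32 and 0.21).

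Cells of the Ccl3/Ccl4 state, which express 2 chemokines of activated microglia, had lower P2ry12 (686 CPM for control and 587 CPM for stressed cells, log2 -0.77 and -0.72) and lower Cx3cr1 (907 and 1003 CPM, log2 -0.52 and -0.51). Gpr34 was at 719 and 844 CPM, close to resting-type cells (log2 -0.07, -0.31 to 0.16, and -0.08, -0.21 to 0.05). Past 1.5 times, 1 of 5 genes was lower in the control library (P2ry12), against 11.3% of other genes, and 2 of 5 in the stressed library (P2ry12 and P2ry13), against 5.71%; none was higher, against 16.6% and 8.75%. P2rx7 had 5 UMIs in control and 17 UMIs in stressed Ccl3/Ccl4 cells, at 18.1 and 21.9 CPM against 47.8 and 43.1 CPM in resting-type cells, log2 -1.41 (-3.11 to -0.05) and -0.97 (-1.81 to -0.23), the only state in which its interval left out 0 in both libraries. The summed dissociation-response list, genes that tissue handling can induce, was at 426 and 412 CPM in these cells against 160 and 191 CPM in resting-type cells, and its part in the receptor values was not tested.

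In G2 and mitosis the fractalkine receptor stood above resting-type cells while the P2Y receptors stood below them. Cx3cr1 was at 1622 CPM in control and 1657 CPM in stressed cells in G2 and mitosis, above resting-type cells in both libraries, log2 0.32 (0.16 to 0.48) and 0.21 (0.12 to 0.30). In the same cells P2ry12 was at 670 and 685 CPM, log2 -0.81 and -0.50, and P2ry6 at 117 and 132 CPM, log2 -0.91 and -0.80. Past 1.5 times, 2 of 5 genes were lower in each library (P2ry12 and P2ry6 in the control, P2ry13 and P2ry6 in the stressed library), against 11.1% and 6.02% of other genes, and none was higher, against 20.1% and 17.1%. The P2ry12 ratio in G2 and mitosis rests on the settings, at -1.06 to -0.36 over 9 alternatives for control and -0.55 to 0.00 for stressed cells. P2ry13 had log2 -0.53 and -0.64 there, and over the alternatives -0.88 to 0.13 for control and -0.71 to -0.29 for stressed cells. For P2ry6 the alternatives ran from -0.92 to -0.08 for control and from -0.83 to -0.55 for stressed cells. In S phase 2 of 5 genes were lower in the control library (P2ry12 at 773 CPM, log2 -0.60, and P2ry13 at 101 CPM, log2 -1.05), against 14%, and 0 of 5 in the stressed library, against 4.81%, where P2ry12 was at 883 CPM (log2 -0.13). Cx3cr1 in S phase was at 1128 and 1243 CPM, log2 -0.20 (-0.44 to 0.03) and -0.20 (-0.33 to -0.08) against resting-type cells. The control interval spans 0. Over 9 alternatives this Cx3cr1 ratio ran from -0.46 to 0.45 for control and from -0.47 to 0.09 for stressed cells, so its sign rests on the settings. None was higher in S phase, against 24.5% and 14.1%.

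The Spp1 content of a cell ran through these states, so the Ccl3/Ccl4, S phase, and G2 and mitosis states were split at 30 Spp1 UMIs per 10000. Spp1-high over resting-type cells made up the remaining pair of each library. The split was made after the state values were seen. Of control S phase cells, 14 of 44 were above it, and of stressed ones 8 of 101. P2ry12 was lower past 1.5 times in the cells above the split in all 8 pairs (4 in each library), with log2 ratios from -2.05 to -0.71 and a median of -1.63. Being lower past 1.5 times in all 8 pairs held for 17 of 1914 other genes, 0.888%, among them Tmem119, Siglech and Crybb1. In each library 1 of the 4 pairs is the Spp1-high comparison already given above, so the count for P2ry12 reuses values on which the split was chosen and is no independent support. Cx3cr1 was lower in all 8 pairs, as were 7.31% of other genes, but by less (log2 -1.02 to -0.31). P2ry13 was lower in 8, P2ry6 and Gpr34 in 7, P2rx7 in 5 and P2rx4 in 1 of the 8 pairs. The cells above the split were deeper in all 8 pairs, in control G2 and mitosis with a median of 6587.5 against 2728 UMIs and in control S phase with 5656 against 2460. The summed border-associated list was higher above the split in all 4 control pairs (134 and 403 CPM in G2 and mitosis, 102 and 304 CPM in S phase) and in 2 of 4 stressed pairs, against 13288 CPM in control border-associated cells, with 3 to 6 of its 8 genes at 0 above the split; the part of either in the P2ry12 ratios was not tested. Of these pairs, 3 rest on fewer than 20 cells above the split: S phase in both libraries, and control G2 and mitosis with 18.

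Below the split, P2ry12 lay near resting-type cells in S phase and below them in G2 and mitosis. It was at 1206 CPM in control and 963 CPM in stressed S phase cells with little Spp1, log2 0.04 (-0.28 to 0.35) and -0.01 (-0.16 to 0.14) against resting-type cells, and at 899 and 830 CPM in G2 and mitosis, log2 -0.38 (-0.62 to -0.14) and -0.22 (-0.35 to -0.09). Cx3cr1 in G2 and mitosis with little Spp1 reached 1922 and 1779 CPM, log2 0.57 (0.39 to 0.74) and 0.31 (0.22 to 0.41). In Ccl3/Ccl4 cells with little Spp1 the libraries differed for P2ry12, at 1054 CPM in the control (log2 -0.15, -0.43 to 0.12) and 669 CPM in the stressed library (log2 -0.53, -0.70 to -0.37).

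**Figure D4:**
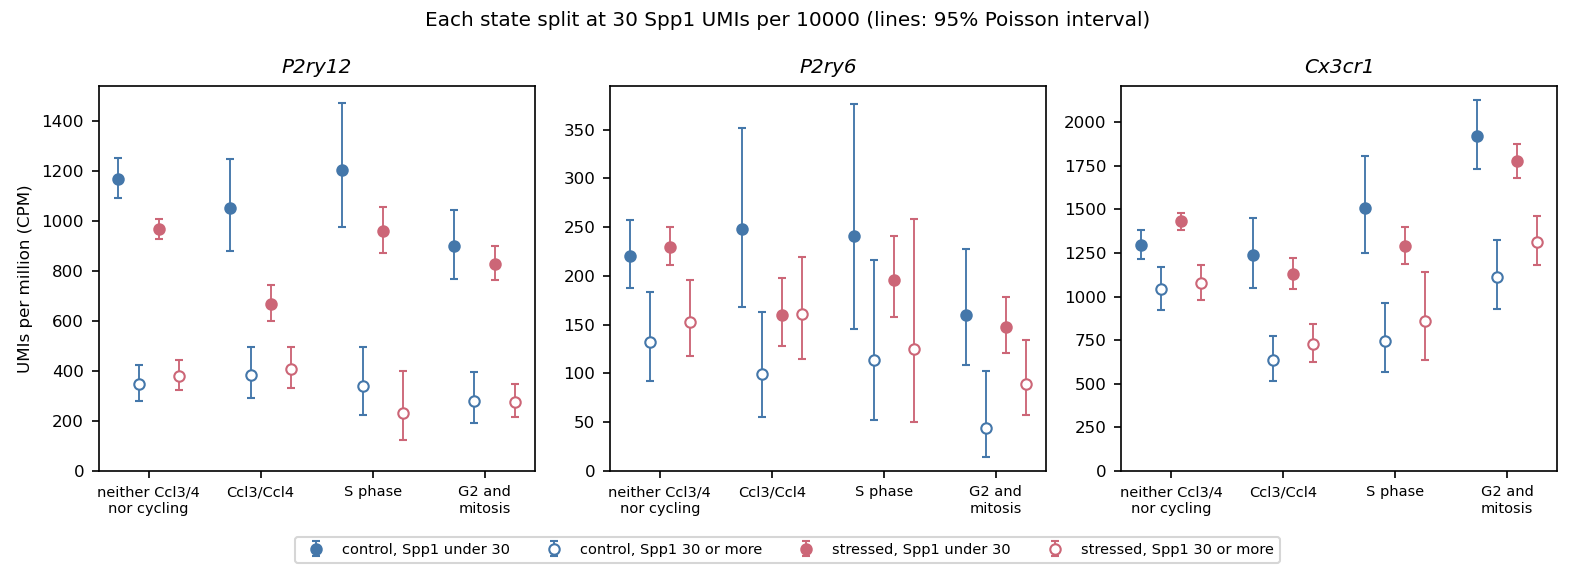
Points give CPM of P2ry12, P2ry6 and Cx3cr1 in cells that are neither Ccl3/Ccl4 nor cycling (resting-type under the split, Spp1-high above it) and in the Ccl3/Ccl4, S phase, and G2 and mitosis states, each split at 30 Spp1 UMIs per 10000, with 95% Poisson intervals. Open points (Spp1 30 or more) lie below filled points for P2ry12 and Cx3cr1 in all 8 pairs, and Cx3cr1 is highest in G2 and mitosis with little Spp1 (1922 and 1779 CPM).

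Across all microglia-like cells binned by Spp1, P2ry12 stood at 1178 CPM in control cells with fewer than 5 Spp1 UMIs per 10000, at 905 CPM between 5 and 30, at 475 CPM between 30 and 100, and at 236 CPM from 100 upwards. In the stressed library the same bins held 1005, 543, 412 and 280 CPM. Both series ran downwards at every step, and the libraries were furthest apart between 5 and 30, where P2ry12 was lower in the stressed library by log2 -0.74 (109 and 162 cells) and P2ry13 by -0.69; 13.4% of other genes were lower past 1.5 times in that bin. Cx3cr1 ran from 1485 to 785 CPM in the control and from 1510 to 945 CPM in the stressed library, and Gpr34 from 798 to 461 CPM and from 892 to 609 CPM. P2rx4 ran the other way, from 34.9 to 56.1 CPM and from 38.0 to 64.5 CPM, with intervals that overlap between the end bins in both libraries. Spp1 itself was at 23644 CPM in the highest control bin and 17988 CPM in the highest stressed bin.

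**Figure D5:**
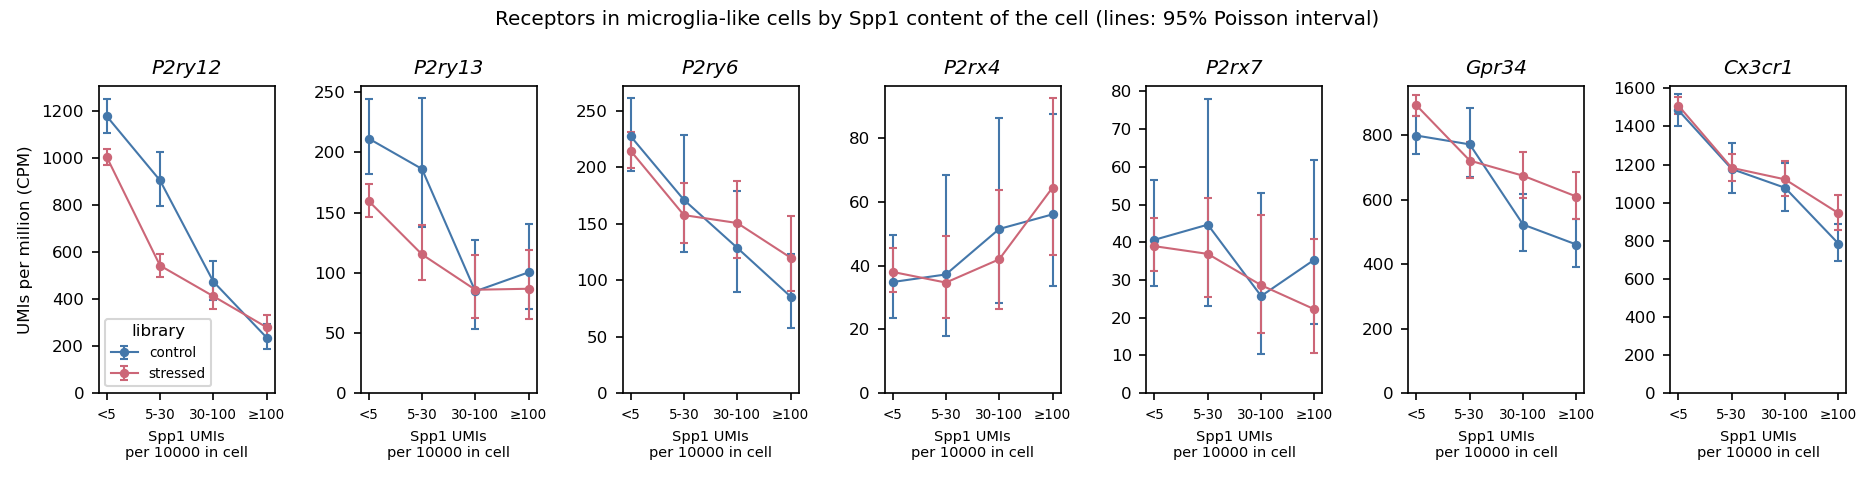
Points give each receptor's CPM in microglia-like cells binned by the cell's Spp1 UMIs per 10000, in the control and stressed libraries, with 95% Poisson intervals; each panel has its own linear axis from 0. P2ry12 runs from 1178 to 236 CPM (control) and from 1005 to 280 CPM (stressed), and P2rx4 is the panel with its highest value in the last bin of both libraries.

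Over 18 sums (5 states and 4 other classes in each library), the genes most like P2ry12 by Pearson's r of log2(CPM + 10), among 6343 genes with 50 CPM in 1 sum, were Mylip (r = 0.979), Pde3b (0.976), Rhoh (0.976), Arhgap25 (0.974) and Blnk (0.973). Those most like Cx3cr1 were Hpgds (0.992), Trem2 (0.991), C1qc (0.989), C1qb (0.986) and Arsb (0.985), of which Trem2, C1qb and C1qc were gate or marker genes. Those most like Gpr34 were Fcrls (0.986), Rhoh (0.985), Mylip (0.982), Cd180 (0.981) and Eva1a (0.981), of which Fcrls was a marker gene of the microglia list. The sums share libraries and are dominated by the split of macrophages from other cells, so these values describe likeness across classes only. Cx3cl1 never exceeded 10.7 CPM and was not compared. Among the receptors, P2ry12 was most like Gpr34 (0.979) and P2ry13 (0.961) and least like P2rx4 (0.532).

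Partners of these receptors were compared in the same way in microglia-like cells. Of the genes at 50 CPM, 0 of 3 for nucleotide release, breakdown and uptake, 0 of 10 Gi signalling partners, 0 of 3 genes downstream of P2X channels, 0 of 4 of the fractalkine axis and 0 of 1 for lysophosphatidylserine passed 1.5 times, a count near the background of 0.861% higher and 2.98% lower among other genes. In the order control then stressed, the largest differences among them were Gng12 (202 and 140 CPM, log2 -0.53) and Gnb1 (279 and 195 CPM, -0.51), G protein subunits; Abhd12, which degrades lysophosphatidylserine (255 and 336 CPM, 0.40); and Mapk14, a stress kinase (54.6 and 41.6 CPM, -0.39). Gnb2 (0.30), Arrb2 (-0.30), Itgav (-0.32), the fractalkine sheddases Adam10 (-0.28) and Adam17 (-0.18), and the protease Ctss (0.13) stood closer. Entpd1, the surface enzyme that breaks down ATP and ADP, was at 67.8 and 78.4 CPM (log2 0.21); Lrrc8a had -0.15, Slc29a1 0.03, Irf8 -0.07 and Pycard 0.01.

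None of the 14 other P2 and adenosine receptors reached 50 CPM in microglia-like cells of either library: Adora3 was at 41.4 CPM in control and 39.4 CPM in stressed cells. P2ry14, next to P2ry13 on chromosome 3, had 3 and 2 UMIs. In Spp1-high cells Entpd1 was lower beside P2ry12 (48.9 against 97.1 CPM in control resting-type cells, log2 -0.99, -1.97 to -0.12; 55.0 against 95.4 CPM in the stressed library, log2 -0.79, -1.48 to -0.17). Of the Gi partners at 50 CPM, 2 of 12 were lower in control and 2 of 11 in stressed Spp1-high cells, Arrb2 (log2 -0.73, -1.61 to 0.07, and -0.99, -1.75 to -0.31) and Grk2 (-0.92 and -1.04), near the background of 15% and 10.4%. Higher past 1.5 times were 2 of 12 for control (Gng12, log2 0.89, and Gnaq) and 1 of 11 for stressed cells (Gng12, log2 1.05). These counts were near the background of 14.9% and 11.2% of other genes higher. Med12l, which overlaps P2ry12 and P2ry13 on the other strand, was at 18.8 CPM in control Spp1-high and 64.2 CPM in control resting-type cells (5 and 47 UMIs), log2 -1.77.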

How the data were processed

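Both deposited matrices hold unnormalized UMI counts, one value for a gene in a barcode, from software of version 3.0.0, per the file headers. The tools given per the submitters' processing notes are STAR, Cell Ranger 3.0.0 and Seurat 2.4, with the build GRCm38.p5 (mm10); which tool did what is not given in the sources used here. Per the labels, 8834 control and 9055 stressed cells were sorted and about 6000 loaded. The files hold 2833015 control and 6582188 stressed UMIs.

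The cell filter asked for 500 genes or more and no more than 10% of UMIs from mitochondrial genes. Each cell was placed in a class and a state by its UMIs of marker lists per 10000, without the 8 genes. Counts were summed over a group and divided by its total (CPM). Sums have exact Poisson, shares exact Clopper-Pearson and ratios exact conditional intervals, all at 95%; they cover counting error only. Genes at 50 CPM in either group were compared at 1.5 times, beside all other such genes without ribosomal, mitochondrial, haemoglobin and sex-linked ones; no p-value was computed. A count of 0 was set to 3 for a ratio. Shares used cells thinned to 1100 UMIs (42 control and 3 stressed microglia-like cells were shallower). Scrublet's own threshold marked 2 and 3 cells, so doublets were kept and an alternative removed the highest 3.5% of scores.

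The genes and lists were chosen with earlier results of these data known. The text names all 8 genes, up to 4 measured genes of each pathway list with the largest ratio between libraries, and the 5 genes most like P2ry12, Cx3cr1 and Gpr34; other genes, Entpd1, Arrb2, Grk2, Gng12 and Med12l in states among them, the split of states by Spp1 and the cell left out were chosen after their values were seen. Positions are from GENCODE M21, promoters from RefSeq. Python 3.11.15, scanpy 1.11.5, edgeR 4.0.16 (TMM) and DESeq2 1.42.0 (size factors) were used, the last pair for scaling alternatives only. The counting step was tested on simulated data.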

Additional observations from a re-analysis of the deposited data

Results flagged for a closer look

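The ratio of the stressed to the control library had opposite signs in border-associated macrophage-like and microglia-like cells for 3 receptors, and none of these differences was tested. P2ry12 had a log2 ratio of 1.34 in border-associated and -0.08 in microglia-like cells; without the 1 stressed cell that held 26 of its 32 UMIs the border-associated ratio was -0.93. P2ry13 had 0.73 against -0.27, and 0.29 without that cell. P2rx4 had 1.32 against -0.06, from 14 control and 21 stressed UMIs, none of them in that cell.

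P2ry13 in S phase over resting-type cells had a log2 ratio of -1.05 in the control library, from 16 S phase UMIs, and 0.03 in the stressed library, from 85; this difference was not tested either.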

How the results depend on the processing

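No paired analysis was possible because each condition is 1 library, and for the same reason no library could be left out. Of 735 alternative values of 84 ratios, 661 lay inside the main counting interval, 73 outside it and 1 changed the sign of a called ratio: P2ry12, stressed over control in border-associated cells, went to -0.93 without the cell with most P2ry12. Between libraries in microglia-like cells, P2ry13 was lower (-0.37 to -0.09) and Gpr34 (0.10 to 0.36) and Cx3cr1 (0.07 to 0.26) higher under all 13 alternatives, whereas P2ry12 ran from -0.27 to 0.22. Both TMM and DESeq2 factors added 0.10 to every ratio. The cause of the changes below was not tested. Counts that stayed within 1.5 times of the first value, such as 4 against 3 or 3 against 2, are not listed; they went both up and down.

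Pathway genes past 1.5 times between libraries were 0, but 2 under TMM scaling, DESeq2 size factors, thinned cells and resting-type cells only, 4 under the stricter cell filter and at 20 CPM, 3 in cells with Xist and no Y, 1 under stricter gates, Leiden clusters and less dissociation response, and 11 of 102 with no minimum. Genes of the 8 lower in Ccl3/Ccl4 cells, 1 in the control, were 2 by the mean of per-cell CPM, in Leiden clusters and at 20 CPM, 3 when thinned or under the stricter cell filter, and 0 at 2 times, and 1 was higher in cells with Xist and no Y; in the stressed library 2 became 1 under the stricter cell filter and stricter gates and 0 at 2 times. In G2 and mitosis, 2 lower became 1 by the mean of per-cell CPM in both libraries, 0 when thinned and under stricter gates in the control, 1 under the stricter cell filter and stricter gates in the stressed library, and 0 in Leiden clusters and at 2 times in both; 1 was higher in the control under the stricter cell filter and Leiden clusters. In S phase, 2 lower in the control became 0 when thinned and under stricter gates and 1 in Leiden clusters and at 2 times, with 1 higher when thinned; in the stressed library 0 lower became 1 when thinned. In stressed border-associated cells 4 lower became 2 under stricter gates and at 2 times, and 1 higher became 0 in Leiden clusters. In Spp1-high cells 3 lower in the control became 5 in cells with Xist and no Y and 1 at 2 times, and 1 higher became 0 at 100 CPM and at 2 times; in the stressed library 3 lower became 1 at 2 times, and 0 higher became 1 under stricter gates and without the highest 1% of cells per gene. At 2 times, P2ry12 was the gene still lower in Spp1-high cells of both libraries.

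Depth limits P2rx4 and P2rx7: the Spp1-high ratio of P2rx4 in the stressed library ran from -0.0022 to 0.65. States are cuts of continuous scores.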
